A study of Mus musculus with 12 samples.

Results

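The genes described here encode the nuclear-encoded parts of oxidative phosphorylation, measured in abdominal fat of 12 obese diabetic mice. They were taken by name: every probe set whose gene symbol begins with Nduf, Uqcr, Cox4 to Cox8 or Atp5, or is Sdha, Sdhb, Sdhc or Sdhd. This gave 86 of the 23185 named probe sets, each for a different gene. They comprised 33 subunits of complex I, 8 assembly factors of complex I, 4 subunits of complex II, 7 of complex III, 19 of complex IV, 12 of complex V and 3 pseudogenes. The rule used gene symbols and no measured value, but it was set with earlier results of these data known.

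Every animal was a BKS.Cg-Dock7m +/+ Leprdb/J mouse, known as db/db, which lacks a working leptin receptor, and all received adenovirus at an age of 12 weeks. The virus carried short hairpin RNAs (shRNAs), which direct the degradation of a matching messenger RNA. Controls were given the control shRNA virus alone, at 4e9 plaque-forming units. The LCN13 group received 2e9 units against LCN13, a secreted lipocalin, plus 2e9 of control virus. The TSC22D4 group received 2e9 units against TSC22D4, a leucine zipper protein that regulates transcription, plus 2e9 of control virus. The combined group received 2e9 units of the LCN13 virus and 2e9 of the TSC22D4 virus, without control virus. Fat was frozen 1 week later, and of 7 animals in each group 3, described in the labels as representative, were put on arrays. The labels write the controls' genotype as wild type, although the strain is the same db/db strain in every group. The groups allow each shRNA to be compared with control, alone and in combination.

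Oxidative phosphorylation is the mitochondrial process that passes electrons from NADH and succinate to oxygen and uses the resulting proton gradient to make ATP. Complexes I to IV form the electron transport chain, and complex V is the ATP synthase. In white fat the chain serves fat storage and adipokine secretion, and in brown fat uncoupling of the chain releases heat. Most subunits are encoded in the nucleus, as all those described here, while a small core of subunits is encoded in mitochondrial DNA.

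The tissue label was borne out by its defining markers. The 6 white adipocyte markers had a mean of 13.3 to 13.4 log2 units on every array. Neither target of the shRNAs passed in this tissue. Tsc22d4 lay between 7.56 and 7.88, with limma adjusted p-values of 0.888 or more against control. Lcn13, listed as Obp2a, lay between 5.71 and 5.79, with limma adjusted p-values of 0.665 or more against control. The lowest value of any probe set was 5.62, so a fall in Obp2a RNA could hardly have been seen. Of 64 measured markers of other and of fat cell types, 0 passed in any of the 9 comparisons by limma's test. Of all named genes 0% to 1.61% passed, depending on the comparison. Mesothelial markers reached their highest mean, 8.62, in the LCN13 group, against 7.49 to 8.05 in the control, TSC22D4 and combined groups. LCN13 replicates 5 and 6 lay at that upper end. Red blood cell markers averaged 9.59 to 9.94 in the combined group and 7.11 to 9.10 in the control group. The part of these markers in the results was not tested. In bulk tissue, fewer cells of a type and less RNA per cell cannot be told apart.

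Most of the oxidative phosphorylation genes gave strong signals. A total of 73 of the 86 had a mean above 6.36, the median of all named probe sets. The means ran from 5.70 to 13.6. The other 13 lay at or below that median, where array signals respond little to a change in RNA. They included 8 genes for general subunits or assembly factors, namely Cox5b, Cox7b, Ndufa11, Ndufb3, Ndufaf2, Ndufaf5, Ndufaf6 and Ndufaf8. Signals of different probe sets were not set against each other, because each probe set has its own response.

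LCN13 replicate 6 stood apart from the other 11 arrays. It was the lowest array for 24 of the 86 genes, and its deviations from the 12-array mean of each gene had an SD of 0.221, against 0.0846 to 0.159 elsewhere. The 24 genes included Ndufa1, Ndufa7, Ndufb5, Ndufb7, Cox5a, Cox6a2, Cox7a1 and Cox8b. Other genes were high on the same array, such as Ndufb2 and Ndufs6, so that the array's median deviation was -0.03. Control replicate 3 was lowest for 19 genes and had the lowest median deviation, -0.05. The highest median deviation, 0.04, belonged to LCN13 replicate 8.

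**Figure D1:**
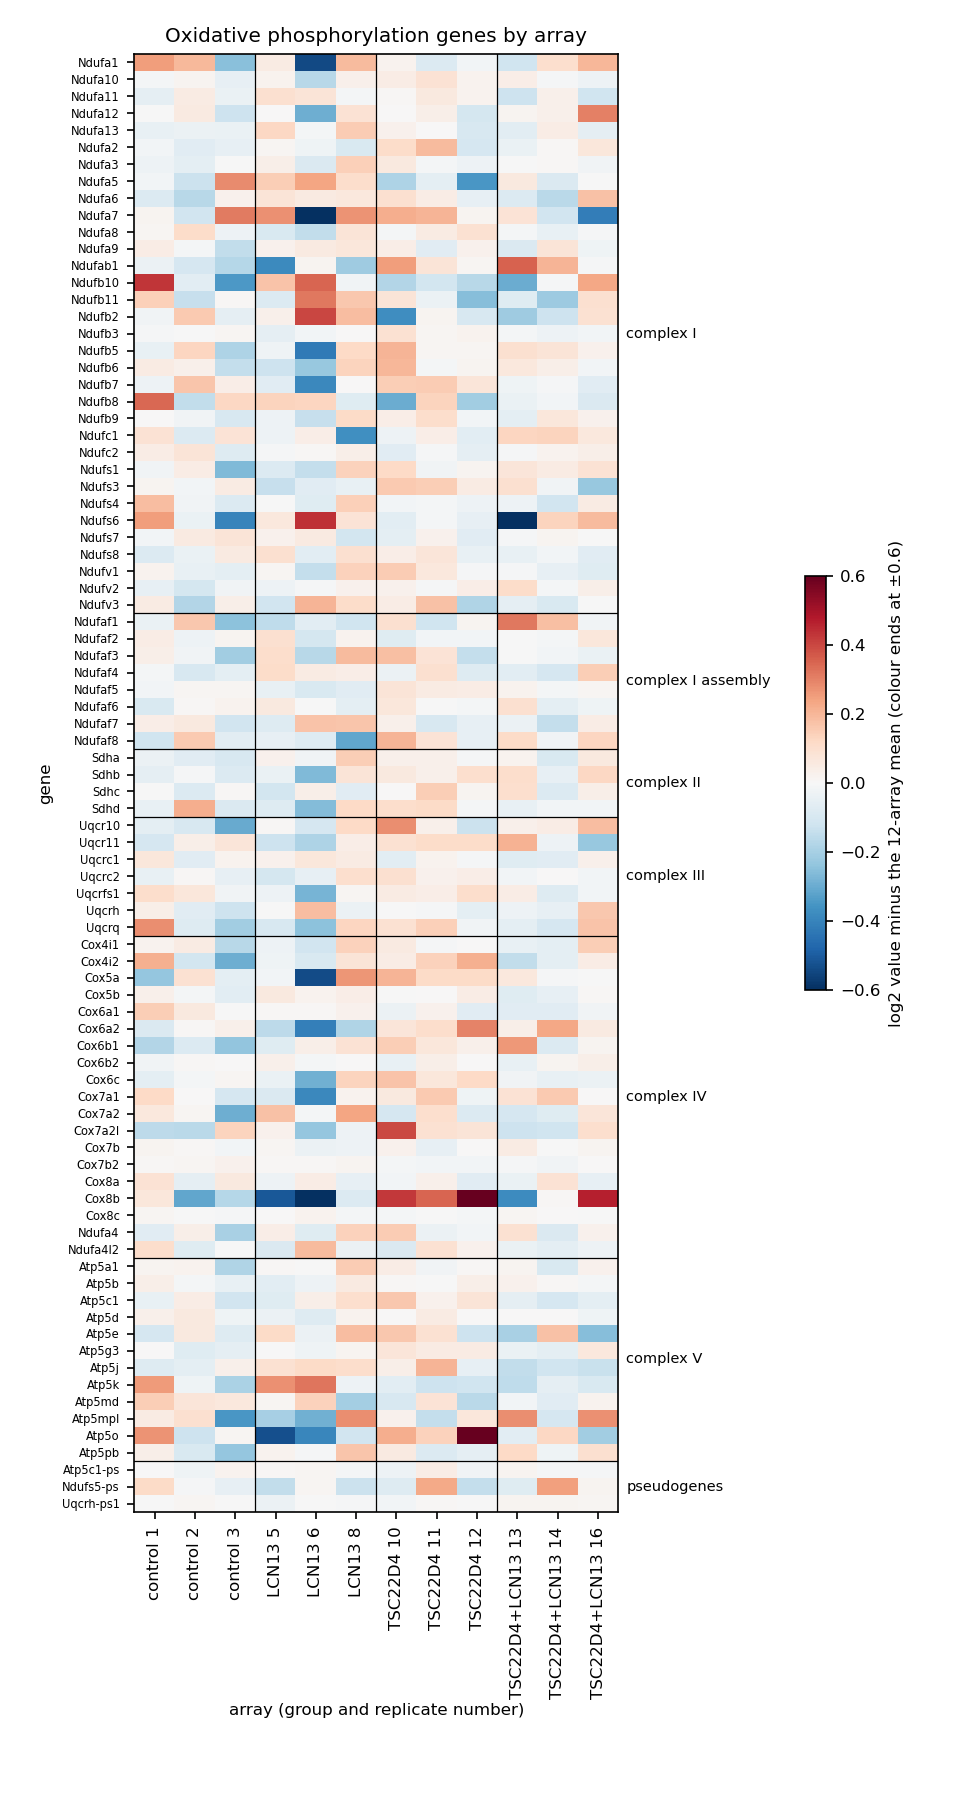
Log2 value of each of the 86 genes on each of the 12 arrays, minus the gene's mean over the 12 arrays, with genes ordered by complex. Red is above and blue below that mean, and colours end at 0.6 in both directions. The lowest cells include Cox8b, Ndufa7, Ndufa1 and Cox5a on LCN13 replicate 6 and Ndufs6 on combined replicate 13.

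Over all 4 groups, 1 of the 86 genes was called, which is no larger a share than among all named genes. The moderated F test asks whether the means of the 4 groups differ in any way, and calls were made at an adjusted p under 0.05 over all named genes. It called Ndufaf5 and none of the others, beside 1.61% of all named genes. At an unadjusted p under 0.05 it took 8 genes, or 9.30%, beside 16.1% of all named genes. These 8 were Ndufaf5, Cox6a2, Atp5j, Atp5o, Cox8b, Ndufab1, Ndufa5 and Cox6a1. The highest and lowest group mean of a gene differed by a median of 0.14 log2 units, beside 0.09 over all named genes and a median SD between replicates of 0.1 for the 86. For 61 genes that span was under 0.2, and it reached 0.5 in 2 genes, Cox8b with 1.06 and Atp5o with 0.69.

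Ndufaf5, the gene called, encodes a complex I assembly factor that hydroxylates an arginine of the subunit Ndufs7. Its signal was dim and its differences were small. The control arrays read 6.01, 6.05 and 6.05, and the LCN13 arrays 5.99, 5.94 and 5.96. TSC22D4 arrays read 6.11, 6.08 and 6.08, and the combined arrays 6.05, 6.02 and 6.04. The LCN13 arrays lay below all others, the TSC22D4 arrays above all others, and the control and combined arrays overlapped. The F test gave an unadjusted p of 0.000623 and an adjusted p of 0.0437. The TSC22D4 effect averaged over both LCN13 states was 0.07 (SE 0.01, adjusted p = 0.0523) and the averaged LCN13 effect was -0.06 (SE 0.01, adjusted p = 0.074). The F test call held in 1 of the 12 fits that each left out 1 array, that without control replicate 1 (adjusted p = 0.0469), and in the other 11 the adjusted p ran up to 0.129, the value without LCN13 replicate 6. Leaving out LCN13 replicates 5 and 6 kept replicate 8 as the only LCN13 array, so only effect sizes are given from that fit.

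The promoter of Ndufaf5 is shown because this gene carries the call. It is taken from RefSeq on the mouse build GRCm38.p6, is 300 bases long, lies around the transcription start at chr2:140170396-140170695 on the plus strand and is written 5′ to 3′. Capitals mark GCGCATGC, a core of sites for nuclear respiratory factor 1, a regulator of many mitochondrial genes, which matched on both strands in overlapping positions.
Ndufaf5: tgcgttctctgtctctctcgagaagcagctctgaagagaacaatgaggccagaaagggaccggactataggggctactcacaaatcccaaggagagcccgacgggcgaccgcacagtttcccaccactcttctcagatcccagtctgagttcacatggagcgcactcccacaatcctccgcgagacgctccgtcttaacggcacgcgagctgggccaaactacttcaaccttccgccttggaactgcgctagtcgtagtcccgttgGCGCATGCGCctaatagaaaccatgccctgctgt
A match of letters describes the sequence and was not read as a bound site. The same letters on either strand occurred in the windows of 10 of the 68 oxidative phosphorylation genes with a window (14.7%), beside 3.05% of 27025 genes.

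Against control, no oxidative phosphorylation gene passed with either shRNA or with both. With the TSC22D4 shRNA, limma called 0 of the 86, beside 1.17% of all named genes, and 8 had an unadjusted p under 0.05, 6 of them higher, beside 11.8%. With the LCN13 shRNA it called 0, beside 1.44%, and 7 had an unadjusted p under 0.05, 3 of them higher, beside 12.6%. With both it called 0, beside 1.34%, and 4 had an unadjusted p under 0.05, 3 of them higher, beside 11.0%. These comparisons share the 3 control arrays.

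The TSC22D4 arrays held slightly higher values than the control arrays for most of the genes. The log2 difference was above 0 for 62 of the 86 genes (72.1%), beside 47.6% of all named genes, with a median of 0.045, beside -0.0022. Among genes with a mean above the median signal, it was above 0 for 55 of 73 with a median of 0.056, beside 0.0035. The medians by complex were 0.041 in complex I, 0.045 in its assembly factors, 0.083 in complex II, 0.072 in complex III, 0.048 in complex IV and 0.063 in complex V. The 3 pseudogenes had a median of -0.0086. The shift depended on control replicate 3: without it the median was 0.013 and 49 of 86 differences were above 0 (57.0%). Differences this small lay within the spread between replicates of most single genes.

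In the LCN13 group and in the combined group the genes lay around the control level. With the LCN13 shRNA the difference was above 0 for 43 of 86 genes (50.0%, beside 54.1%), with a median of 0.0011, beside 0.0040. Without LCN13 replicate 6 the median was 0.043 and 57 were above 0. Without LCN13 replicates 5 and 6 it was 0.059 and 58 were above 0. There the LCN13 values came from replicate 8 alone, the array with the highest median deviation. With both shRNAs it was above 0 for 50 of 86 (58.1%, beside 51.7%), with a median of 0.0082, beside 0.0015. Without combined replicate 16 that median was -0.0065, and without control replicate 3 it was -0.00046. Complex V had a median of -0.032 there and complex II one of 0.054.

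**Figure D2:**
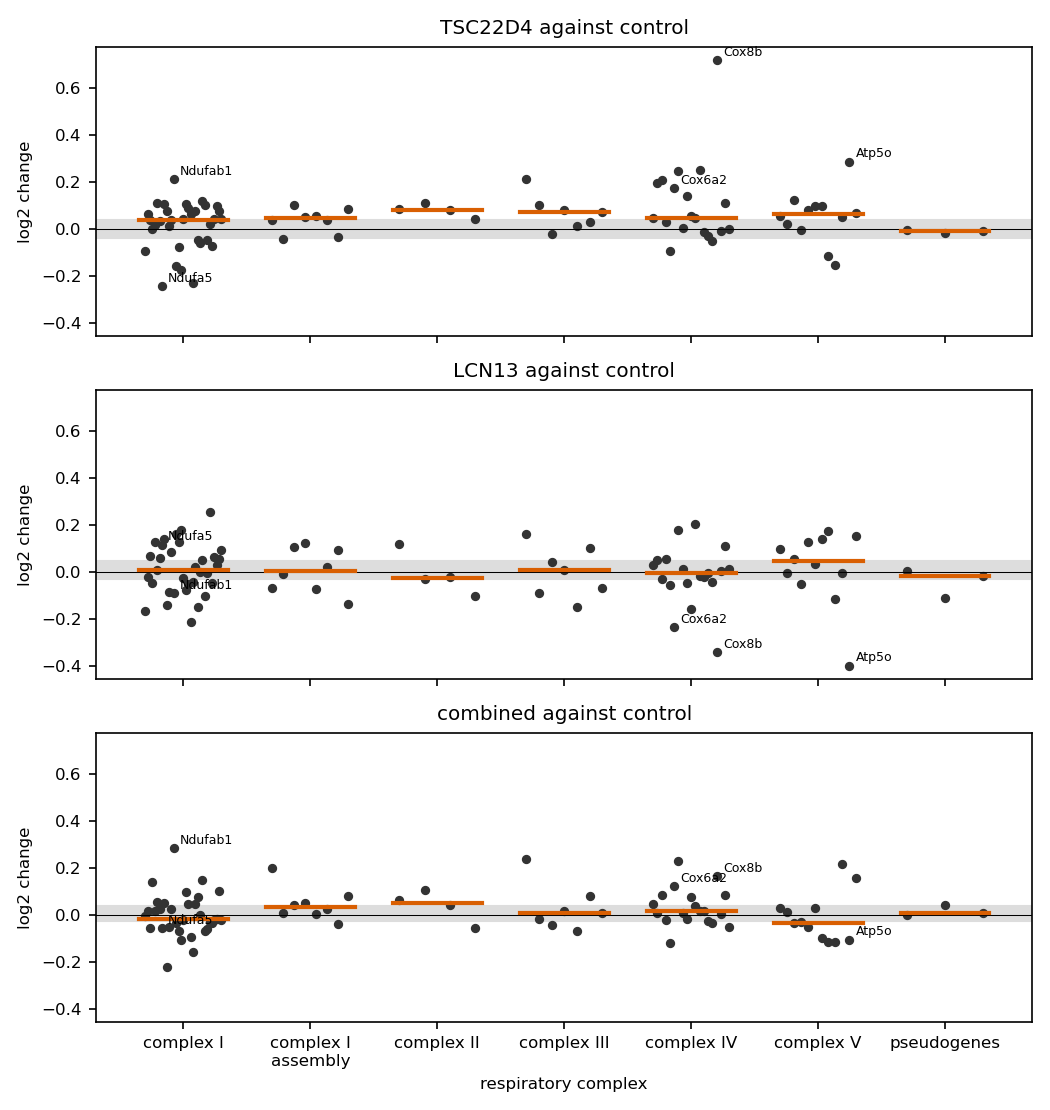
Log2 change of each gene against control by complex, for the TSC22D4, LCN13 and combined groups (y axes), with points for genes, orange bars for the median of a complex and a grey band for the middle 50% of all named genes. The points of most complexes lie slightly above 0 with the TSC22D4 shRNA and on both sides of 0 otherwise. Cox8b (0.72) lies farthest out with the TSC22D4 shRNA, Atp5o (-0.4) with the LCN13 shRNA and Ndufab1 (0.29) with both.

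The array medians show how far single animals set these values. The TSC22D4 group held 0.04 on replicates 10 and 11 but -0.0081 on replicate 12, and the LCN13 group ran from -0.03 on replicate 6 to 0.04 on replicate 8. Complex II and complex III were lowest on LCN13 replicate 6, at -0.14 and -0.1. The groups overlapped.

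**Figure D3:**
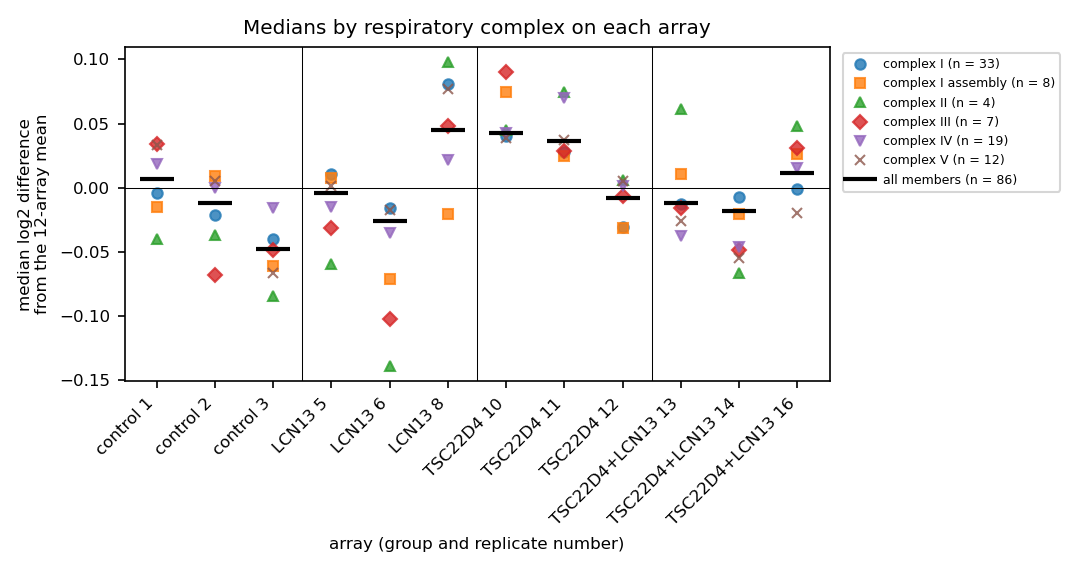
Median over the genes of each complex of the log2 difference from the 12-array mean (y axis) on each of the 12 arrays (x axis), with a black bar for all 86 genes. The bars lie between -0.05 on control replicate 3 and 0.04 on LCN13 replicate 8, and arrays of different groups overlap.

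The combined group was also set against each single shRNA. Against TSC22D4 alone limma called 0 of the 86 genes, beside 0% of all named genes, and 6 had an unadjusted p under 0.05, all lower, beside 6.91%. The difference was above 0 for 31 genes (36.0%, beside 53.8%), with a median of -0.017, beside 0.0036. Against LCN13 alone it called 0, beside 0.00863%, and 13 had an unadjusted p under 0.05, 7 of them higher, beside 10.7%. The difference was above 0 for 48 genes (55.8%, beside 47.9%), with a median of 0.0072, beside -0.0020. That median changed sign to -0.015 without LCN13 replicate 6.

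Averaged over the other shRNA, each effect rests on 6 arrays against 6. For the TSC22D4 shRNA limma called 0 of the 86 genes, beside 1.39% of all named genes, and 12 had an unadjusted p under 0.05, 7 of them higher, beside 16.1%. The effect was above 0 for 52 genes (60.5%, beside 47.2%), with a median of 0.021, beside -0.0023. Without LCN13 replicates 5 and 6 it was above 0 for 39 genes and the median was -0.0095. For the LCN13 shRNA it called 0, beside 1.08%, and 9 had an unadjusted p under 0.05, 1 of them higher, beside 13.7%. That effect was above 0 for 40 genes (46.5%, beside 54.3%), with a median of -0.0054, beside 0.0030.

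The interaction is the TSC22D4 effect in animals that also received the LCN13 shRNA minus that in animals that did not. Limma called 0 of the 86 genes, beside 0.397% of all named genes, and 5 had an unadjusted p under 0.05, all negative, beside 7.08%. The interaction was above 0 for 33 genes (38.4%, beside 48.5%), with a median of -0.033, beside -0.0019. The median ran from -0.061 without control replicate 1 to -0.0085 without LCN13 replicate 8, and was -0.107 without LCN13 replicates 5 and 6.

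The precision of these arrays limited how large a difference in signal could have gone unseen. The 95% confidence interval of a log2 difference between 2 groups reached a median of 0.172 to each side for the 86 genes, which is 1.13-fold. The intervals of single genes, not adjusted for their number, lay within 1.5-fold up and down for 81 genes with the TSC22D4 shRNA, 80 with the LCN13 shRNA and 83 with both. They lay within 2-fold for 85, 86 and 86, and the exception was Cox8b with the TSC22D4 shRNA. The width differed between genes, and the number of arrays limited it. The counts include the 13 dim genes, whose signals respond little to a change in RNA. For those genes a narrow interval sets no limit on a difference in RNA.

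Complex I takes electrons from NADH and was covered by 6 core subunits, most of which carry cofactors, and 27 supernumerary subunits. None was called in any comparison, beside 0% to 1.61% of all named genes. These shares apply to each complex below as well. Its lowest p in the F test belonged to Ndufab1, the mitochondrial acyl carrier protein, which is both a subunit of complex I and a part of mitochondrial fatty acid synthesis. Ndufab1 read 9.14, 9.07 and 9.01 in controls and 8.79, 9.19 and 8.96 in the LCN13 group. It read 9.43, 9.25 and 9.19 in the TSC22D4 group and 9.53, 9.38 and 9.17 in the combined group. The arrays with TSC22D4 shRNA lay at the upper end but overlapped those without it, with 9.17 on combined replicate 16 and 9.19 on LCN13 replicate 6. The averaged TSC22D4 effect was 0.3 (SE 0.08, adjusted p = 0.12), and the change with both shRNAs against control, 0.29 (SE 0.12, adjusted p = 0.387), was the highest of the 86 in that comparison.

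Other complex I genes moved in both directions without passing. Ndufa5, a subunit of the matrix arm, read 7.50, 7.39 and 7.80 in controls, 7.67, 7.75 and 7.63 with LCN13 shRNA, 7.33, 7.46 and 7.17 with TSC22D4 shRNA and 7.58, 7.43 and 7.52 with both. Its change of -0.24 with the TSC22D4 shRNA (SE 0.1, adjusted p = 0.401) was the lowest of the 86. Without control replicate 3 it was -0.13, without TSC22D4 replicate 12 it was -0.17, and the range over single arrays left out was -0.33 to -0.13. It was also the highest, at 0.19, in the combined group against TSC22D4 (adjusted p = 0.777), and at 0.15 in the averaged LCN13 effect (adjusted p = 0.407). Ndufb7, a supernumerary subunit of the membrane arm, had a change of -0.21 with the LCN13 shRNA (SE 0.09, adjusted p = 0.374), where LCN13 replicate 6 read 8.99 and replicates 5 and 8 read 9.31 and 9.38. Without LCN13 replicate 6 that change was -0.09 (adjusted p = 0.627). Its F test gave an adjusted p of 0.331.

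Several of the extreme complex I values depended on single arrays. Ndufa7 had the lowest change of the 86 with both shRNAs against control, -0.22 (SE 0.26, adjusted p = 0.899). That change was -0.09 without combined replicate 16, which read 8.52, -0.1 without control replicate 3, which read 9.25, and -0.34 without combined replicate 13. Ndufs6, a zinc-binding subunit, had the highest change with LCN13 shRNA, 0.26 (SE 0.22, adjusted p = 0.72). It was 0.09 without control replicate 3, which read 9.91, 0.13 without LCN13 replicate 6, which read 10.7, and 0.41 without control replicate 1. Ndufb2 had the lowest averaged TSC22D4 effect, -0.23 (SE 0.09, adjusted p = 0.25). Ndufc1 had the highest interaction, 0.27 (SE 0.13, adjusted p = 0.76), which was 0.15 without LCN13 replicate 8, where it read 10.02, and 0.53 without LCN13 replicates 5 and 6.

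The other complex I assembly factors named by rank were Ndufaf8 and Ndufaf1. Ndufaf8 supports Ndufaf5 in human cells and was dim as well; its F test gave an adjusted p of 0.467. Ndufaf1, a member of the intermediate assembly complex, had a change of 0.2 with both shRNAs (SE 0.11, adjusted p = 0.601). The LCN13 arrays lay below the combined arrays for both genes, and neither passed in any comparison.

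Complex II oxidises succinate and is both a part of the citric acid cycle and of the chain. Its 4 genes were bright and varied little, with a span of group means between 0.1 and 0.14. Sdha, the flavoprotein, read 11.9, 11.9 and 11.8 in controls and 12.0, 11.9 and 12.1 in the LCN13 group, a change of 0.12 (SE 0.05, adjusted p = 0.347). Sdhb, the iron-sulphur subunit, had a change of 0.11 with TSC22D4 shRNA (SE 0.08, adjusted p = 0.67) and of 0.11 with both (adjusted p = 0.75). Of the membrane anchors, Sdhc had a change of 0.08 with TSC22D4 shRNA (adjusted p = 0.678) and Sdhd one of 0.04 (adjusted p = 0.926). The F tests gave adjusted p-values of 0.499 for Sdha, 0.572 for Sdhb, 0.673 for Sdhc and 0.794 for Sdhd.

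Complex III passes electrons from ubiquinol to cytochrome c. None of its 7 genes was called. Uqcrfs1, the Rieske iron-sulphur protein, had the lowest F test p of the complex (adjusted p = 0.478), with a change of -0.15 with LCN13 shRNA (SE 0.07, adjusted p = 0.428). Its LCN13 arrays read 6.55, 6.31 and 6.60 and its controls 6.69, 6.65 and 6.57, so the groups overlapped. Without LCN13 replicate 6 the change was -0.06 (adjusted p = 0.734). Uqcr10, a small subunit, was 0.21 higher with TSC22D4 shRNA (SE 0.11, adjusted p = 0.504) and 0.24 higher with both (adjusted p = 0.461). Uqcrc1, a core subunit, had a span of group means of 0.08 (adjusted p = 0.599).

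Complex IV, cytochrome c oxidase, passes electrons to oxygen and is the complex whose subunits come in tissue isoforms. Of the 19 genes, 11 were counted as general subunits and 8 as isoforms restricted to certain tissues or conditions. The general group includes Cox7a2l, and also Ndufa4, which was first assigned to complex I. The general subunits had a median change of 0.048 with TSC22D4 shRNA, -0.016 with LCN13 shRNA and 0.019 with both. The restricted isoforms had medians of 0.029, -0.00068 and 0.008. No gene of either kind was called.

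Cox6a2 and Cox8b, the isoforms of heart, skeletal muscle and brown fat, were the complex IV genes with the lowest F test p. Cox6a2 read 6.47, 6.56 and 6.58 in controls and 6.39, 6.14 and 6.37 with LCN13 shRNA. It read 6.62, 6.66 and 6.85 with TSC22D4 shRNA and 6.59, 6.78 and 6.60 with both. All 6 arrays with the TSC22D4 shRNA lay above all 6 without it, although the gap to the highest control was small. The averaged TSC22D4 effect was 0.27 (SE 0.06, adjusted p = 0.0697) and the F test gave an adjusted p of 0.104. The averaged effect had an adjusted p of 0.0432 with a variance prior that follows signal and 0.0373 when dim probe sets were left out before adjustment. Without LCN13 replicate 6 it was 0.23 (adjusted p = 0.121), and without LCN13 replicates 5 and 6 it was 0.23.

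Cox8b had the widest span of all 86 genes and also a wide spread between replicates. The control arrays read 7.37, 6.99 and 7.13, and the LCN13 arrays 6.79, 6.45 and 7.21. TSC22D4 arrays read 7.72, 7.64 and 8.27, and the combined arrays 6.92, 7.30 and 7.76. The TSC22D4 arrays lay above all control and LCN13 arrays, and the combined arrays overlapped every other group. The change was 0.72 with TSC22D4 shRNA (SE 0.26, adjusted p = 0.302), which is 1.65-fold, and -0.34 with LCN13 shRNA (SE 0.26, adjusted p = 0.67). The latter was -0.16 without LCN13 replicate 6 and 0.05 without LCN13 replicates 5 and 6. The averaged effects were 0.61 for TSC22D4 (SE 0.18, adjusted p = 0.145) and -0.45 for LCN13 (SE 0.18, adjusted p = 0.331). The combined group differed by -0.55 from TSC22D4 (adjusted p = 0.739) and by 0.51 from LCN13 (adjusted p = 0.521). Without LCN13 replicates 5 and 6 the averaged TSC22D4 effect was 0.42.

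Markers of cell types that use these isoforms were mostly weak. Of 12 skeletal muscle markers 11 lay at or below the median signal, and their mean ran from 6.06 to 6.18 over the control arrays, 6.07 to 6.08 with LCN13 shRNA, 6.09 to 6.14 with TSC22D4 shRNA and 6.07 to 6.10 with both. Of 8 brown and beige adipocyte markers 6 lay at or below it, with means of 6.38 to 6.52, 6.31 to 6.41, 6.46 to 6.51 and 6.37 to 6.51 in the same order. The defining markers Ucp1 and Cidea were dim on every array, between 6.06 and 6.36 and between 5.92 and 6.05. Of 5 cardiac muscle markers 4 lay at or below the median signal, with means of 6.06 to 6.11, 6.13 to 6.14, 6.04 to 6.06 and 6.05 to 6.10. None of these lists held a called gene. The smallest limma adjusted p in the brown and beige list was 0.0879 for TSC22D4 against control. For the averaged TSC22D4 effect it was 0.0828. The part of these cell types in the isoform signals was not tested.

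The other restricted isoforms did not pass in any comparison. Cox7a1, also an isoform of heart, muscle and brown fat, read 7.03, 6.91 and 6.81 in controls, 6.82, 6.52 and 6.93 with LCN13 shRNA, 6.97, 7.07 and 6.88 with TSC22D4 shRNA and 7.00, 7.07 and 6.91 with both. Its F test gave an adjusted p of 0.497. Cox4i2, an isoform of lung and of low oxygen, had a change of 0.2 with TSC22D4 shRNA (adjusted p = 0.589), and Ndufa4l2, a paralogue of Ndufa4 induced by low oxygen, one of 0.00078 (adjusted p = 0.998). The testis isoforms Cox6b2, Cox7b2 and Cox8c lay at the lower end of the signal on every array, and their group means spanned at most 0.03.

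The general counterparts of these isoforms were measured beside them. Cox6a1 read 13.8, 13.7 and 13.6 in controls and 13.5, 13.5 and 13.6 with both shRNAs, a change of -0.12 (SE 0.04, adjusted p = 0.219), and its F test gave an adjusted p of 0.3. Its averaged TSC22D4 effect was -0.08 (adjusted p = 0.183), opposite in sign to that of Cox6a2. Cox6b1 had a change of 0.25 with TSC22D4 shRNA (SE 0.08, adjusted p = 0.255), 0.18 with LCN13 shRNA (adjusted p = 0.415) and 0.23 with both (adjusted p = 0.313). The span of group means was 0.05 for Cox4i1, 0.05 for Cox8a, 0.21 for Cox7a2 and 0.04 for Cox7b, and none was called. Probe sets near the top of the range, as that of Cox6a1, can understate a change.

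The promoter window of Cox8b is shown because this gene had the largest differences. It lies at chr7:140900397-140900696 on the minus strand (RefSeq, GRCm38.p6, 5′ to 3′), and none of the 4 motifs searched occurs in it, so it has no capitals.
Cox8b: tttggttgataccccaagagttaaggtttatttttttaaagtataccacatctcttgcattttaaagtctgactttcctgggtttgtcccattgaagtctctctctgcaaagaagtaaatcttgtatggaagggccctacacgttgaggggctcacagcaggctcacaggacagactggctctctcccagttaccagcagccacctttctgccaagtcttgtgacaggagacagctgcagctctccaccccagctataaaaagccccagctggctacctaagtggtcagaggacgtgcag
The motifs were GCGCATGC (NRF1), CCGGAAG (ETS factors such as GABP), AAGATGG (YY1) and AAGGTCA (estrogen-related receptors), on both strands.

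Complex V makes ATP, and none of its 12 genes was called. Atp5j encodes coupling factor 6, a part of the stalk that holds the catalytic head. It read 7.84, 7.87 and 7.96 in controls and 8.02, 8.04 and 8.03 with LCN13 shRNA. It read 7.96, 8.13 and 7.88 with TSC22D4 shRNA and 7.78, 7.80 and 7.79 with both. The combined arrays lay below all others, and the LCN13 arrays above all control arrays. The interaction, -0.34 (SE 0.08, adjusted p = 0.206), was the lowest of the 86, and the F test gave an adjusted p of 0.14, or 0.0459 without TSC22D4 replicate 11. Without LCN13 replicates 5 and 6 the interaction was -0.34.

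Atp5o encodes the oligomycin sensitivity conferring protein, which also lies in that stalk. It read 7.32, 6.92 and 7.06 in controls, 6.52, 6.66 and 6.93 with LCN13 shRNA, 7.26, 7.19 and 7.71 with TSC22D4 shRNA and 6.98, 7.17 and 6.84 with both. The TSC22D4 arrays lay above all LCN13 and combined arrays, and the LCN13 and control groups overlapped. The change with LCN13 shRNA, -0.4 (SE 0.17, adjusted p = 0.363), was the lowest of the 86. It was -0.17 without LCN13 replicates 5 and 6, where replicate 8 was the only LCN13 array. The F test gave an adjusted p of 0.196. Atp5c1, the gamma subunit, which turns within the head, gave 0.352, and its probe set may share signal with the pseudogene Atp5c1-ps. Atp5k, a small membrane subunit, had the lowest difference between the combined and LCN13 groups, -0.29 (SE 0.11, adjusted p = 0.413), which was -0.07 without LCN13 replicates 5 and 6.

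The 3 pseudogenes were Atp5c1-ps, Ndufs5-ps and Uqcrh-ps1. Atp5c1-ps and Uqcrh-ps1 lay at the lower end of the signal, with group means spanning 0.0065 and 0.03. Ndufs5-ps had a span of 0.15 and an F test adjusted p of 0.82.

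**Figure D4:**
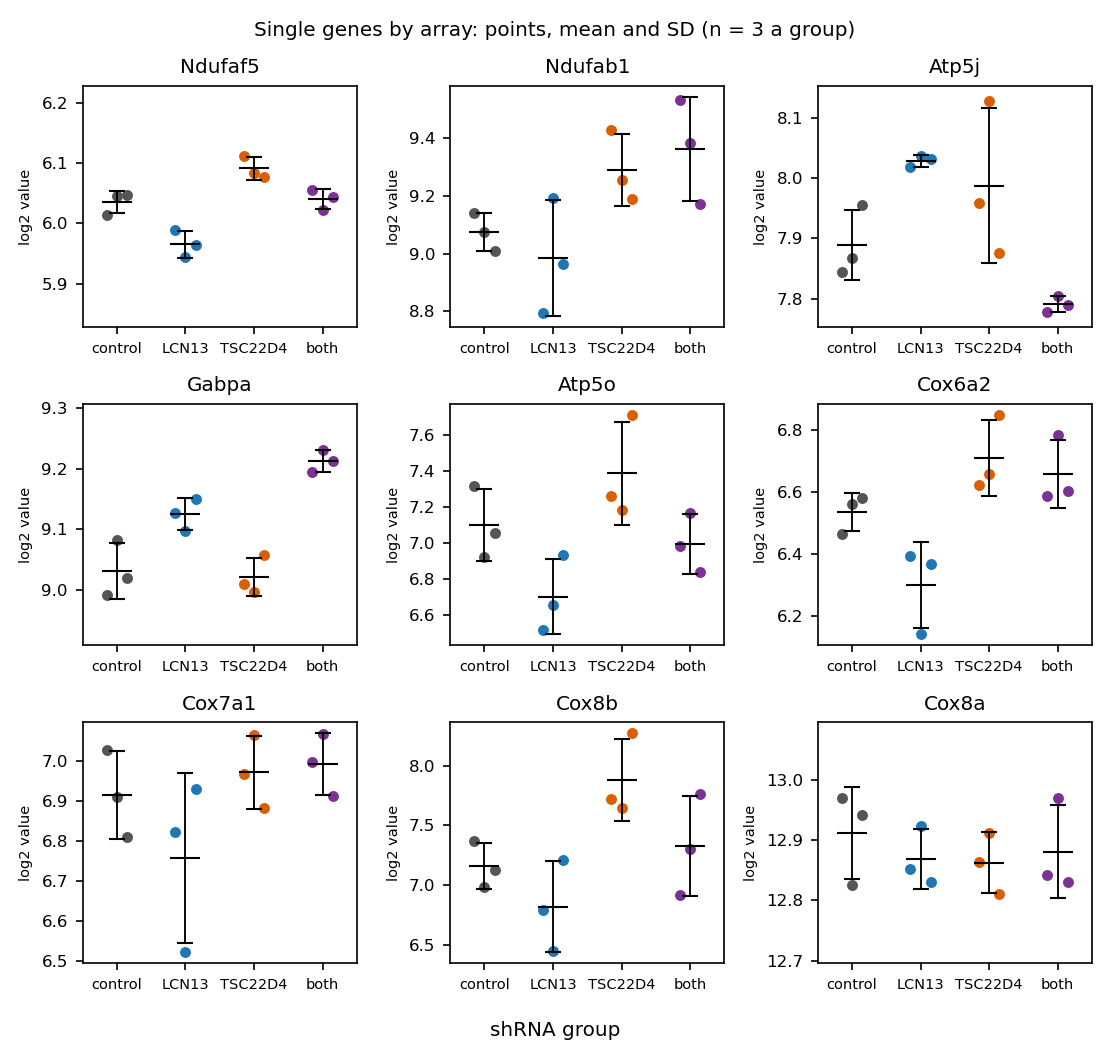
Log2 values of 9 genes by group (points, 3 arrays a group), with the mean and SD in black. Each y axis has its own range, which is at least 0.4 log2 units wide. Ndufaf5 spans 0.13 between group means, Cox8b spans 1.06, Gabpa is highest and Atp5j lowest in the combined group, and Cox8a spans 0.05.

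Among regulators of mitochondrial genes, Gabpa differed. It encodes the DNA-binding subunit of GABP, also called nuclear respiratory factor 2, an ETS factor that binds many promoters of oxidative phosphorylation genes. Gabpa was not chosen by the name rule but belonged to a list of 15 regulators, of which it was the only one called, beside 1.61% of all named genes in the F test, 1.34% for the combined group against control and 1.08% for the averaged LCN13 effect. It read 8.99, 9.08 and 9.02 in controls, 9.13, 9.10 and 9.15 with LCN13 shRNA, 9.01, 9.00 and 9.06 with TSC22D4 shRNA and 9.20, 9.23 and 9.21 with both. All 6 arrays with the LCN13 shRNA lay above all 6 without it.

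Gabpa rose by 0.14 in the averaged LCN13 effect (SE 0.02, adjusted p = 0.00868), which is a small change, and by 0.18 in the combined group against control (SE 0.03, adjusted p = 0.0116). The LCN13 shRNA alone against control did not pass (0.09, SE 0.03, adjusted p = 0.166). Neither did the combined group against TSC22D4 (0.19, SE 0.03, adjusted p = 0.366). The F test gave an adjusted p of 0.0184. The averaged effect passed in all 12 fits that left out 1 array (adjusted p from 0.0058 to 0.0323). It did not pass with dim probe sets left out (0.0604) or with a variance prior that follows signal (0.173). The combined change had adjusted p-values of 0.0536 without combined replicate 14, 0.0835 with dim probe sets left out, 0.112 with only the arrays compared and 0.261 with the other variance prior. The F test lost its call without TSC22D4 replicate 10 (0.0555) and without combined replicate 13, 14 or 16 (0.0522, 0.0651 and 0.0544).

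Gabpa and Atp5j lie head to head on mouse chromosome 16. One of the 2 promoter windows that RefSeq gives for Atp5j, chr16:84834927-84835226 on the minus strand of GRCm38.p6, overlaps that of Gabpa, chr16:84834874-84835173 on the plus strand, by 247 bases. It is shown because the combined group was highest for Gabpa and lowest for Atp5j. In the LCN13 group, however, both genes lay above the controls on every array, and Atp5j was not called. Capitals mark, from 5′ to 3′, the YY1 letters AAGATGG and the ETS letters CCGGAAG.
Atp5j: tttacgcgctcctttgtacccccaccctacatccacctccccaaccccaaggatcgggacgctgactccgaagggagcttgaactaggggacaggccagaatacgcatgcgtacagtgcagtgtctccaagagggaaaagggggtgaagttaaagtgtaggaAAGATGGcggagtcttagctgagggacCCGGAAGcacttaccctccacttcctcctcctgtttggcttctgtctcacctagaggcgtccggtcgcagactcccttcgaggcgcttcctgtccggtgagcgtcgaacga
Whether the levels of both genes are tied through this stretch was not tested.

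The motif letters were more frequent in windows of the oxidative phosphorylation genes than over all genes. ETS letters occurred in 17 of 68 (25.0%, beside 9.93% of 27025 genes), YY1 letters in 10 (14.7%, beside 7.28%) and estrogen-related receptor letters in 5 (7.35%, beside 5.38%). Any of the 4 occurred in 33 (48.5%, beside 23.1%). The windows of all genes include many that differ in base composition and in kind, and nothing was drawn from these shares about a factor. The other 18 genes had no window in the table.

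Other regulators did not pass. Ppargc1b, a coactivator of mitochondrial genes, had group means of 6.82 in controls and 6.50 with LCN13 shRNA. For LCN13 against control, the lowest limma adjusted p among the 15 regulators was 0.0711. The averaged LCN13 effect of Ppargc1b was -0.18 (adjusted p = 0.147). Tfb1m, a mitochondrial ribosomal RNA methyltransferase, had an averaged TSC22D4 effect of 0.14 (adjusted p = 0.181). Esrrg, an estrogen-related receptor, had one of -0.14 (adjusted p = 0.128).

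Assembly factors outside the name rule were measured for 37 of 38 genes. Limma called 1 of the 37, with the LCN13 shRNA against control, beside 1.44% of all named genes. Cox18, which inserts a part of the complex IV subunit Cox2 into the inner membrane, fell by 0.26 on the log2 scale with the LCN13 shRNA (SE 0.05, adjusted p = 0.042). It read 10.06, 10.07 and 10.15 in controls and 9.85, 9.88 and 9.79 with LCN13 shRNA, and the groups did not overlap. The TSC22D4 arrays, at 9.81, 9.96 and 9.86, and the combined arrays, at 9.79, 9.91 and 9.94, lay below the controls as well. Its call held in 2 of 12 fits that left out 1 array, those without TSC22D4 replicate 11 (0.0339) and without combined replicate 13 (0.0322). In the other 10 the adjusted p ran from 0.0504 to 0.12. It was 0.0926 with only the arrays compared and 0.0939 with the other variance prior.

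For the TSC22D4 shRNA the same list had a median averaged effect of 0.123, beside -0.0023 over all named genes, with 17 of 37 at an unadjusted p under 0.05 and 0 called, beside 16.1% and 1.39% of all named genes. Against control the median of this list was 0.0939 with the TSC22D4 shRNA, 0.0925 with both and -0.0422 with the LCN13 shRNA. No median of this list was recomputed with arrays left out. Atpaf2, an assembly factor of the ATP synthase, had an averaged TSC22D4 effect of 0.22 (adjusted p = 0.0788). Ttc19, which acts on complex III, had 0.19 (adjusted p = 0.085), and Bcs1l, which inserts the Rieske protein, 0.17 (adjusted p = 0.107). Of the 13 subunits encoded in mitochondrial DNA 0 were measured.

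Of 8 measured genes for mobile carriers and related proteins, Coq9, which is needed to make ubiquinone, was called for the averaged TSC22D4 effect, beside 1.39% of all named genes. It rose by 0.23 in the averaged TSC22D4 effect (SE 0.04, adjusted p = 0.0447). It read 10.24, 10.20 and 10.13 in controls, 10.03, 10.05 and 10.20 with LCN13 shRNA, 10.42, 10.48 and 10.32 with TSC22D4 shRNA and 10.42, 10.30 and 10.25 with both. All 6 arrays with TSC22D4 shRNA lay above all 6 without it. The call held in 1 of 12 fits that left out 1 array, that without LCN13 replicate 8 (0.0178). In the other fits the adjusted p ran up to 0.119. Etfb, which carries electrons from fatty acid oxidation, had an averaged effect of 0.13 (adjusted p = 0.2).

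The citric acid cycle and the carriers of the inner membrane gave no calls, beside 0% to 1.61% of all named genes over the comparisons. Of 13 cycle enzymes measured 0 passed in any comparison, with medians of 0.046 with TSC22D4 shRNA, -0.022 with LCN13 shRNA and 0.022 with both. Idh2, a mitochondrial isocitrate dehydrogenase, had an averaged TSC22D4 effect of -0.15 (adjusted p = 0.0953) and Dld, a subunit shared by several dehydrogenase complexes, one of 0.28 (adjusted p = 0.122). Of 5 genes for nucleotide exchange, uncoupling and phosphate transport 0 passed. Ucp3 had an averaged TSC22D4 effect of 0.31 (adjusted p = 0.154).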

How the data were processed

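RNA from abdominal fat of 12 mice was hybridised to Affymetrix arrays. The authors deposited 1 log2 value per probe set and array, made with RMA per the submitters' processing notes. The sources used here do not give its settings or the genome build. Sorted arrays differed by at most 0.00188, so a change shared by most genes cannot be seen. Symbols came from the platform annotation: 23185 of 25206 probe sets had 1 symbol and 2021 had none. Replicates within a group correlated at 0.994 to 0.998 across probe sets.

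Groups were compared with limma 3.58.1 in R 4.3.3 over all 12 arrays, with 1 mean per group, 8 residual and 1.38 prior degrees of freedom. P-values were two-sided and adjusted (Benjamini-Hochberg) over the 23185 named probe sets, and the code was tested on simulated data. Each array is a separate animal per the labels, and precision is limited by the number of arrays. The 86 genes, the gene lists, tests and alternatives were chosen with earlier results of these data known. Genes named were those that passed, the 3 with the lowest F test p in each complex, the extremes of each comparison, the tissue isoforms of complex IV with their counterparts, the Sdh genes, and up to 4 of each other list. Promoter sequences are from RefSeq (GRCm38.p6) and matched 68 of the 86 genes by symbol.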

Additional observations from a re-analysis of the deposited data

How the results depend on the processing

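Alternatives left out each array in turn, weighted arrays, used a variance prior that follows signal (trend and robust), kept only probe sets with a mean above the median, tested all probe sets, fitted only the arrays compared, or left out LCN13 replicates 5 and 6, which had high mesothelial markers. Without LCN13 replicates 5 and 6 the LCN13 group rested on replicate 8 alone, so only effect sizes are given from that fit. No called value changed sign. The small medians did under some alternatives for LCN13 and combined against control, combined against LCN13 and both averaged effects, as their values show. The F test called 0 of the 86 genes with the other variance prior and 0 with dim probe sets left out. With single arrays left out it called 0 to 1 (Atp5j in place of Ndufaf5 without TSC22D4 replicate 11). The averaged TSC22D4 effect called 2 genes with array weights (Ndufaf5 and Ndufab1), 1 with the other variance prior and 1 with dim probe sets left out (Cox6a2 in both), and the averaged LCN13 effect called 1 with array weights (Ndufaf5). The other comparisons called 0 under every alternative, that without LCN13 replicates 5 and 6 left aside. Without LCN13 replicates 5 and 6 the median change of the 86 genes was 0.0586 for LCN13 against control, -0.0508 for combined against LCN13, -0.00951 for the averaged TSC22D4 effect and -0.107 for the interaction. With single arrays left out, medians ran from 0.0134 to 0.0598 for TSC22D4 against control, from -0.0134 to 0.0432 for LCN13 against control, from -0.0065 to 0.0182 for combined against control, from -0.0356 to -0.0109 for combined against TSC22D4, from -0.0149 to 0.0212 for combined against LCN13, from 0.00764 to 0.0381 and from -0.0163 to 0.00358 for the averaged TSC22D4 and LCN13 effects, and from -0.0614 to -0.00848 for the interaction. Where a call changed, the cause was not tested. The alternatives for Gabpa, Coq9 and Cox18 were chosen after seeing the data. No paired analysis was possible because the groups share no replicate numbers. Dim probe sets, 13 of the 86, limit what could be seen for those genes.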
